A study of Homo sapiens with 2 samples.

Results

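The AP-1 factors of the FOS, JUN and ATF3 group were examined in DLD-1, a cell line from a human colorectal carcinoma. The group held 10 genes, FOS, FOSB, FOSL1, FOSL2, JUN, JUNB, JUND, ATF3, BATF3 and JDP2. It was represented by every probe set annotated to a single one of these genes, which gave 23 of the 41091 probe sets with 1 gene symbol. The cells of both groups were stably transfected with wild-type p53 under tet-off control, so that tetracycline holds the transgene silent. The p53 on group was cultured without tetracycline for 9 h, and the p53 off group was cultured with it. Each group was 1 Affymetrix array, with no replicate, so every ratio describes these 2 arrays and no test between the conditions was possible. The labels do not say whether the stable line is a single clone, and the induction of p53 itself was not analysed here.

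AP-1 is a family of dimers of leucine zipper (bZIP) proteins. JUN proteins pair with themselves or with FOS proteins and bind the AP-1 site, whose letters are TGACTCA, while dimers that contain ATF proteins prefer the related cAMP response element (CRE), which reads TGACGTCA. Many of these genes are immediate early genes, whose short-lived transcripts appear soon after growth factor or stress signals. ATF3 is a stress-induced factor and a known p53 target. JDP2 and BATF3 are small bZIP proteins without the activation domain of JUN, and JDP2 represses transcription from AP-1 sites.

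Upstream sequences are shown for JUNB and ATF3, the members with the largest ratios, and for JUN and FOS, their classic relatives, whose ratios were small. Each is the 250 bases before an annotated start, 5′ to 3′ on the strand of the gene, from RefSeq on GRCh38.p14. Capitals mark, on either strand, the AP-1 site, the core of the CRE (letters TGACG), and 2 octamers known as AP-1 sites of the JUN promoter, of which the first reads TGACATCA and the other reads TTACCTCA. The octamers were added after the sequences were seen. The JUNB window was chr19:12791236-12791485 (plus strand), that of ATF3 chr1:212565157-212565406 (plus), that of JUN chr1:58784048-58784297 (minus) and that of FOS chr14:75278578-75278827 (plus).
JUNB: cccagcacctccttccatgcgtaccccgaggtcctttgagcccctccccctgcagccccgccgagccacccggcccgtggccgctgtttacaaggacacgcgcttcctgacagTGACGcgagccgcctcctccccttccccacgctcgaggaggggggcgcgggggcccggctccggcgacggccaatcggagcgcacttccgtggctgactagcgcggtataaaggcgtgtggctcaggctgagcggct
ATF3: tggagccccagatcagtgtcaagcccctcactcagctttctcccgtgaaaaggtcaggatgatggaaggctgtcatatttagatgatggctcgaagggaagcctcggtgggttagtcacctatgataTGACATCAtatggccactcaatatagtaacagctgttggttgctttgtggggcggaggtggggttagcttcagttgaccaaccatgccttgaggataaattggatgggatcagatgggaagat
JUN: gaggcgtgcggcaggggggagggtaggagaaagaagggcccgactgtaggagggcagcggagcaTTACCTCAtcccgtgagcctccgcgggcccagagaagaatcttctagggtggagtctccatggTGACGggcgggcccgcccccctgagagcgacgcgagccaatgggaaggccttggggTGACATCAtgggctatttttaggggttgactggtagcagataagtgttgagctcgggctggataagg
FOS: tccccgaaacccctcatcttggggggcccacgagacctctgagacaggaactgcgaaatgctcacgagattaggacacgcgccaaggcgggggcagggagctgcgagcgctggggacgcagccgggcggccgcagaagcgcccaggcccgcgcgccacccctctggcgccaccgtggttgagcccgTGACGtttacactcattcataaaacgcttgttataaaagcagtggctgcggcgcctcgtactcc

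The table of upstream windows held 8 of the 10 members, with 11 windows in all. FOSL1 and BATF3 were not among them. TGACG was found in 7 of these 11 windows, against 21.2% of all 35116 windows. The 7 windows belonged to 7 genes, FOS, FOSB, FOSL2, JUN, JUNB, JUND and JDP2. JDP2 had it in 1 of its 3 windows. The windows with TGACG held 62% (JUN) to 74.8% (JUND) G and C, against a median of 58% over all windows. Of the windows without it, those of ATF3 held 49.2% and 44.8%, and those of JDP2 62.8% and 87.2%. The part of base content in the share with TGACG was not tested. The 2 windows of ATF3 were chr1:212565157-212565406, which is shown, and chr1:212614768-212615017. Sequence before any other start of ATF3 was not examined, so they do not speak for all its promoters. Neither window held TGACG, but the one shown held TGACATCA 123 bases before the start. The same octamer stood 67 bases before the start of JUN, and 2.37% of all windows held it. TTACCTCA was found in JUN, 186 bases before the start, and in 0.644% of all windows.

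The full CRE, which overlaps TGACG, was present in JUND 200 bases before the start and in 1.65% of all windows. None of the 11 windows held the AP-1 site, which 4.20% of all windows held. None held the CArG box bound by serum response factor (1.16% of all windows) or a decamer of the p53 response element (5.57%). At such small shares, finding none in 11 windows is not far from the background. Sequence more than 250 bases before a start was not searched, so the genes may hold these sites further out. TATAAA was found 31 bases before the start of JUNB, 33 before that of FOS and 30 before that of FOSB, and further out, at 230 bases, in a window of ATF3 that is not shown, and 10.7% of all windows held it. These matches describe letters in the windows and are not evidence of binding.

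JUNB and ATF3 had the largest ratios with p53 on, and JDP2 the lowest. JUNB was 6.89-fold higher on its only probe set. ATF3 was 5.88-fold higher by its brightest probe set, but at a log2 ratio of -0.14 on a further one. JDP2 was at least 3.13-fold lower. FOS, FOSL1, FOSL2 and JUN differed by less than 1.5-fold, and JUND was 1.60-fold higher, but lower (log2 ratio -0.24) if the arrays were scaled to the spike-ins. FOSB and BATF3 were too dim on both arrays to give a ratio. Signals below a floor of 112.4, the median of all signals that were not controls, were set to the floor. A probe set with at least 1 signal at or above the floor was counted as measured, and a gene was represented by its brightest probe set.

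Of the 10 members, 8 were measured. The 1.5-fold line was passed upwards by 3 (JUNB, ATF3 and JUND), or 37.5%, against 25.9% of the 13915 measured genes. It was passed downwards by 1 (JDP2), or 12.5%, against 25.9% of measured genes. With 8 genes, neither share stands far from that of all genes. The median log2 ratio, p53 on over p53 off, was 0.49 over the members and 0.0035 over all measured genes. Scaled to the spike-ins these medians were -0.43 and -0.80. Over the 18 measured of the 23 probe sets, 6 were higher and 2 lower by at least 1.5-fold, against 24.6% and 25.7% of the 25962 measured probe sets with 1 gene.

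**Figure D1:**
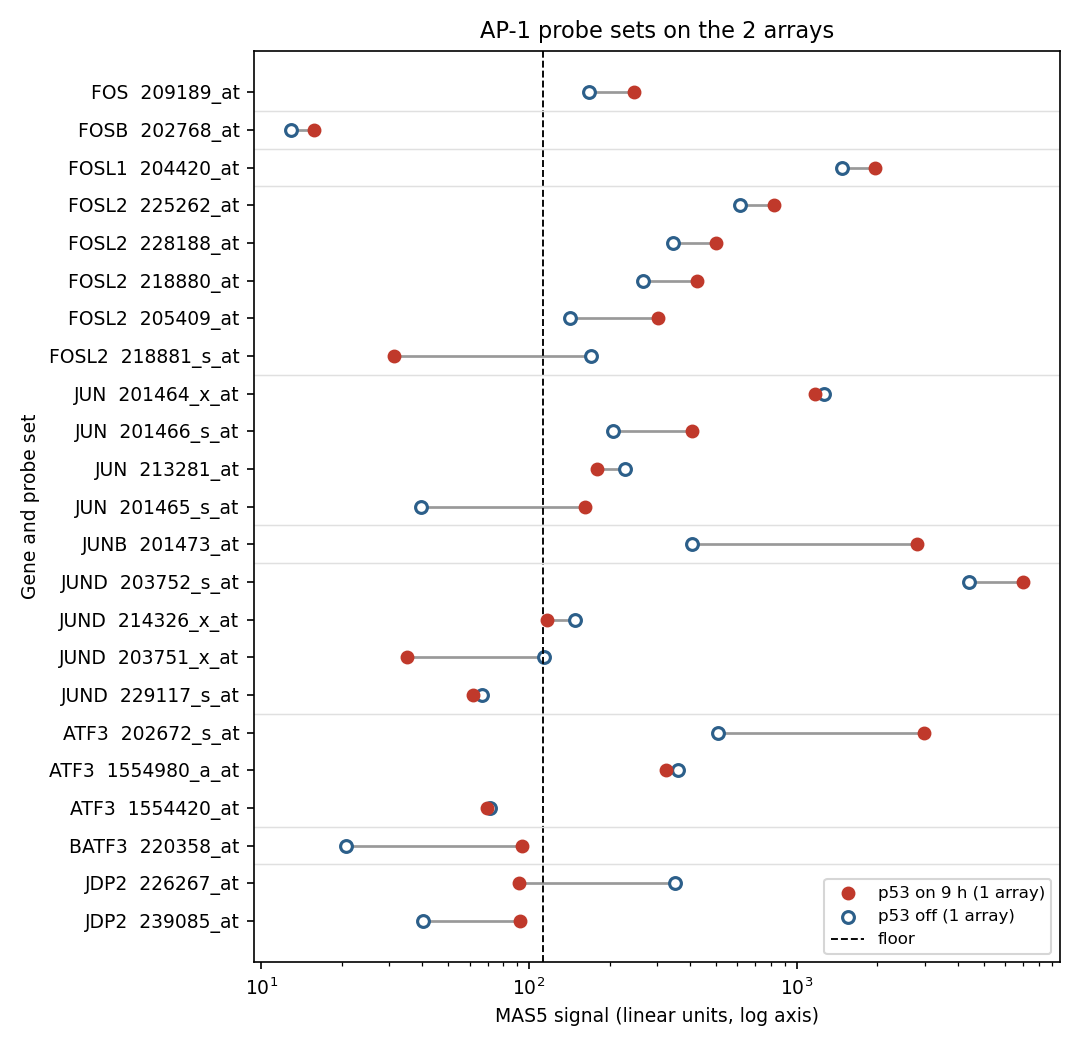
MAS5 signal (linear units, log axis) of each of the 23 AP-1 probe sets on the p53 on 9 h array (filled red) and the p53 off array (open blue), with the floor of 112.4 as a dashed line. JUNB 201473_at (2806 with p53 on, 407.2 with p53 off) and ATF3 202672_s_at (2974 and 505.6) have the widest gaps to the right among probe sets with both signals above the floor, while JDP2 226267_at (91.7 and 351.4) lies on the other side.

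The only repeat measurement for a gene was that of its further probe sets, and this is no replicate of the cultures. Over all genes, the log2 ratio of a further measured probe set lay a median of 0.56 away from that of the brightest, which corresponds to an SD of 0.84. The log2 ratios of JUNB (2.78), ATF3 (2.56) and JDP2 (-1.64) were larger than this SD in size. Those of JUND (0.68), FOS (0.56), FOSL2 (0.42), FOSL1 (0.41) and JUN (-0.11) were smaller, and their neighbours in that order are not separated. Several measured probe sets were available for 4 members, FOSL2, JUN, JUND and ATF3, and in all 4 they lay on both sides of 0. The share of all genes for which this holds was not computed, so it is not read as a trait of these members.

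Among the FOS genes, whose products do not form homodimers and pair with JUN proteins, FOS itself was dim. Its single probe set read 247.4 with p53 on and 167.8 with p53 off, a ratio of 1.47-fold that fell just short of the 1.5-fold line. FOSL1, which encodes FRA1, a FOS protein common in carcinoma lines, read 1961 with p53 on and 1477 with p53 off on its single probe set, a ratio of 1.33-fold. Both genes were thus brighter with p53 on by less than the spread between probe sets of a gene, and both ratios turned negative (-0.36 for FOS and -0.51 for FOSL1) if scaled to the spike-ins. FOSB read 15.8 with p53 on and 12.9 with p53 off, far below the floor.

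FOSL2, the gene of FRA2, had 5 measured probe sets, of which 4 were higher with p53 on as scaled by the authors. Its brightest, 225262_at, read 821.9 with p53 on and 614.4 with p53 off, a ratio of 1.34-fold. Probe set 228188_at gave 498.4 and 343.8 with p53 on and off, and 218880_at gave 423.1 and 265.9. The largest of the 4 ratios, 2.13-fold, was that of 205409_at, at 302.8 with p53 on and 142.2 with p53 off. The dimmer a probe set was among these 4, the larger was its ratio. The exception was 218881_s_at, marked by its name for sequence shared between transcripts, which read 31.2 with p53 on and 170.3 with p53 off and was at least 1.52-fold lower. Scaled to the spike-ins, the brightest probe set had a log2 ratio of -0.50.

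Among the JUN genes, JUN, the founding subunit and main target of the JNK kinases, gave no common direction over its 4 measured probe sets. The brightest, 201464_x_at, read 1166 with p53 on and 1259 with p53 off, a log2 ratio of -0.11. Probe set 213281_at was also lower with p53 on, at 178.7 against 229.0 with p53 off. In the opposite direction, 201466_s_at read 405.0 with p53 on and 206.6 with p53 off, a ratio of 1.96-fold. Probe set 201465_s_at read 161.5 with p53 on and 39.5, under the floor, with p53 off, and was at least 1.44-fold higher. The other 3 JUN ratios ran from -0.36 to 0.97 on the log2 scale, and the mean of all 4, with the bound at its floor value, was 0.26, itself a lower limit.

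JUNB, a JUN protein that activates less strongly than JUN and can oppose it, had the largest ratio of the group. Its single probe set, 201473_at, read 2806 with p53 on and 407.2 with p53 off. The log2 ratio of 2.78 ranked 254th from the highest among 13915 measured genes, with 98.2% of genes below it. Both signals were above the floor, so the ratio does not rest on it. No further probe set was available to check it.

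JUND, the JUN protein that is abundant in resting cells and the partner of menin, was read by 4 probe sets, of which 3 were measured. Probe set 203752_s_at gave 6999 with p53 on and 4382 with p53 off, and the log2 ratio of 0.68 became -0.24 when scaled to the spike-ins. The others were near the floor. Of these, 214326_x_at read 116.7 with p53 on and 148.7 with p53 off, 203751_x_at read 35.0 and 113.9, and 229117_s_at stayed under the floor at 61.8 and 66.9. Every JUND probe set was marked for shared sequence, so none was left when such probe sets were removed.

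ATF3 was higher on its brightest probe set but not on a further one. Probe set 202672_s_at, which the platform annotation pairs with a RefSeq mRNA, read 2974 with p53 on and 505.6 with p53 off. Its log2 ratio of 2.56 ranked 339th from the highest of the 13915 genes. Probe set 1554980_a_at, paired with another cDNA record, read 325.6 with p53 on and 359.6 with p53 off, a log2 ratio of -0.14. These probe sets thus differed by 2.70 on the log2 scale, with all signals above the floor. Probe set 1554420_at stayed under the floor, at 69.9 and 71.3. Since 202672_s_at is marked for shared sequence, removing _x_at and _s_at probe sets left ATF3 at -0.14, the value of 1554980_a_at. The suffix _a_at was not part of this removal, and its bearing on shared sequence was not examined.

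Of the small bZIP repressors, JDP2 was lower with p53 on. Its brightest probe set, 226267_at, read 91.7, under the floor, with p53 on and 351.4 with p53 off. The bound of at least 3.13-fold lower placed JDP2 520th from the lowest of the measured genes, with 3.73% of genes below it. Its other probe set, 239085_at, read 92.2 with p53 on and 40.2 with p53 off, both under the floor, and gave no ratio. BATF3, a dimer partner of JUN proteins in immune cells, read 94.2 with p53 on and 20.8 with p53 off, and also gave no ratio.

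**Figure D2:**
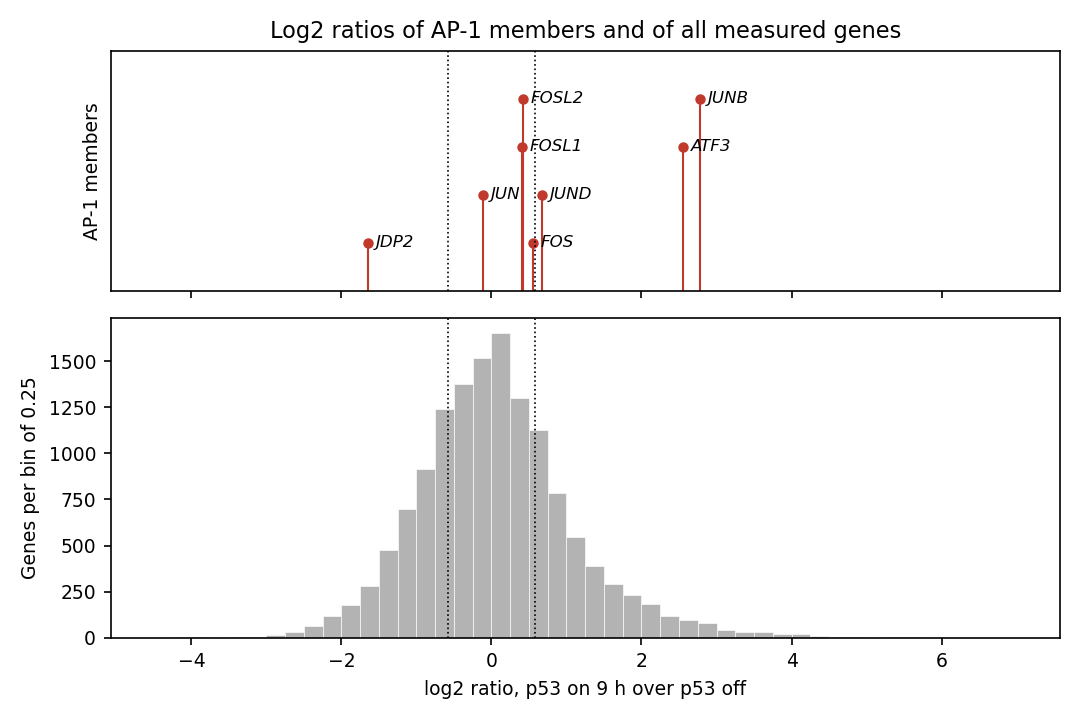
Log2 ratio, p53 on 9 h over p53 off, of the 8 measured AP-1 genes (upper panel, with stem height for legibility only) and of all 13915 measured genes (lower panel, genes per bin of 0.25). Dotted lines mark 1.5-fold; JUNB (2.78) and ATF3 (2.56 on its brightest probe set, -0.14 on a further one) lie in the right tail, JDP2 (-1.64, a bound) in the left, and the other 5 between -0.11 and 0.68.

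The bZIP factors that pair or compete with AP-1 were mixed. Of 14 measured genes in this list, 6 were higher and 3 lower by at least 1.5-fold, against 25.9% of all measured genes each way, and the list median was 0.065. The list was chosen with earlier results of these data known, so its counts are no independent comparison. MAFF, a small MAF protein without an activation domain, was 3.80-fold higher at 10974 with p53 on and 2890 with p53 off, but its other measured probe set had a log2 ratio of -0.92. MAF was 2.41-fold higher, at 321.5 with p53 on and 133.1 with p53 off, and its 3 measured probe sets all pointed upwards. BACH1, a repressor that pairs with small MAF proteins, was 2.53-fold higher, at 1774 and 702.7.

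BATF2 was at least 2.28-fold higher, with signals of 255.9 with p53 on and 32.4, under the floor, with p53 off. ATF2, a dimer partner of JUN, went the other way and was 2.22-fold lower, at 439.7 with p53 on and 976.4 with p53 off. Both of its measured probe sets were lower.

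Of 28 measured kinases, promoter factors and regulators of AP-1, 7 were higher and 11 lower by at least 1.5-fold, against 25.9% of all measured genes each way, and the list median was -0.085. The share of higher genes lay near that background, and that of lower genes was 39.3%. This list, too, was chosen with earlier results of these data known, so neither share is an independent comparison. ELK3, a ternary complex factor that acts with serum response factor on the FOS promoter, was 5.20-fold higher, at 2277 with p53 on and 437.7 with p53 off. The MEF2 genes, whose products bind the JUN promoter, were split. MEF2A was 4.23-fold higher, at 4711 and 1113, with 4 measured probe sets that were all higher.

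MEF2D was at least 3.64-fold higher, at 409.5 with p53 on and 20.4, under the floor, with p53 off. Its other measured probe set had a log2 ratio of only 0.062. MEF2C was 4.97-fold lower, at 221.5 with p53 on and 1101 with p53 off, with all 3 of its measured probe sets lower. RPS6KA5, the gene of the kinase MSK1, was at least 3.44-fold lower, at 109.7 and 386.6, but its other measured probe set had a log2 ratio of 0.52.

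Of 35 genes listed as AP-1 targets, 22 were measured. Of these, 10 (45.5%) were higher and 5 (22.7%) lower by at least 1.5-fold, against 25.9% of all measured genes each way, and the median was 0.39. The list was chosen with earlier results of these data known, so this is no independent comparison. The shares are not read as a rise of AP-1 targets. The collagenase and stromelysin genes MMP1, MMP3, MMP10 and MMP13 and the matrilysin gene MMP7 were under the floor on both arrays, and so were IL6, IL11, CCL2 and IVL. HMOX1, the gene of heme oxygenase, had the largest ratio, 9.05-fold, at 5695 with p53 on and 629.1 with p53 off. HBEGF, an EGF receptor ligand, was 8.28-fold higher, at 5145 with p53 on and 621.1 with p53 off, and its 3 measured probe sets all pointed upwards.

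EDN1, the endothelin-1 gene, was 5.99-fold higher, at 816.4 with p53 on and 136.3 with p53 off, on the brightest of 3 probe sets that were all higher. S100A2, a calcium-binding protein gene, was 4.42-fold higher, at 1498 and 338.6. PLAU, the urokinase gene, was 4.28-fold higher, at 619.9 and 144.9, with both of its measured probe sets higher. The lowest ratio of this list was that of PLAUR, the urokinase receptor gene, which was 2.06-fold lower at 313.2 with p53 on and 646.6 with p53 off, although 1 of its 3 measured probe sets went the other way, with a log2 ratio of 0.84.

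**Figure D3:**
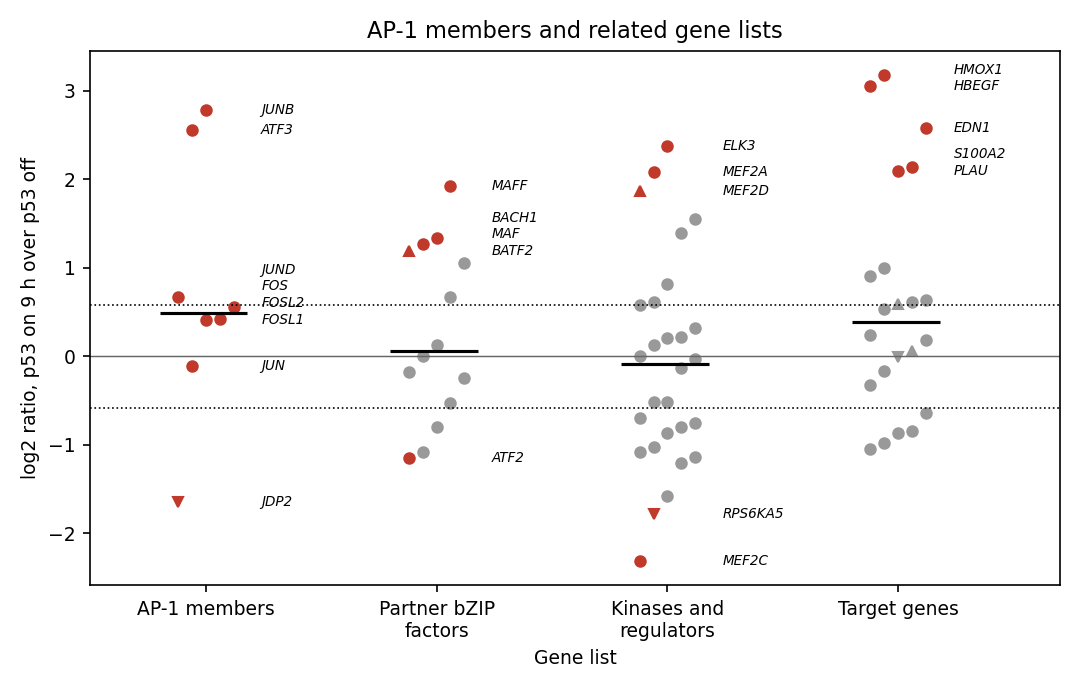
Log2 ratio, p53 on 9 h over p53 off, of each measured gene (brightest probe set) in the AP-1 group and 3 related lists; bars are list medians (0.49, 0.065, -0.085 and 0.39), triangles are bounds set by the floor, dotted lines mark 1.5-fold, and red points are the genes named. The partner and kinase lists spread to both sides of 0, and the highest target genes, HMOX1 and HBEGF, lie above JUNB.

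The arrays differed beyond these genes. The 3' to 5' signal ratio was 7.29 for beta-actin and 1.77 for GAPDH on the p53 on array, against 1.37 and 0.97 on the p53 off array. The 18 hybridization spike-in probe sets had p53 on over p53 off ratios with a median of 1.89 (range 1.47 to 2.59). Scaling to them would lower every ratio above the floor by 0.92 on the log2 scale, which turns the direction of JUND, FOS, FOSL1 and FOSL2 but not that of JUNB, ATF3 or JDP2. JUN, close to 0 as deposited, would stand at -1.03 and so pass the 1.5-fold line downwards. Relative to the median gene under that scaling, JUNB stood at 2.66, ATF3 at 2.43, JUND at 0.55 and JDP2 at -1.31. The part of transcript position or RNA quality in the AP-1 ratios was not tested.

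Several markers of colon epithelium were bright, with EPCAM at 35534 with p53 on and 20250 with p53 off. Others were dimmer, with CDX2 at 461.3 with p53 on and 689.7 with p53 off, and LGALS4 at 1576 and 258.8. KRT20 and CDX1 were under the floor. Markers of other cell types were dim. Of 7 leukocyte markers with a probe set, 4 were measured and 3 of these were at least 1.5-fold higher with p53 on. All 4 were under the floor with p53 off, so their ratios are bounds that could only point upwards. The 25.9% of all measured genes is therefore no like comparison. Over all 7 leukocyte markers, measured or not, the signals summed to 1010 on the p53 on array and 339.4 on the p53 off array, and no single signal was above 247.9. PTPRC, CD3E and CD14 were under the floor on both arrays. For 8 fibroblast markers the summed signals were 985.4 with p53 on and 609.1 with p53 off, and for 7 endothelial markers 698.0 and 415.9. The part of other cells in the AP-1 ratios was not tested.

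**Figure D4:**
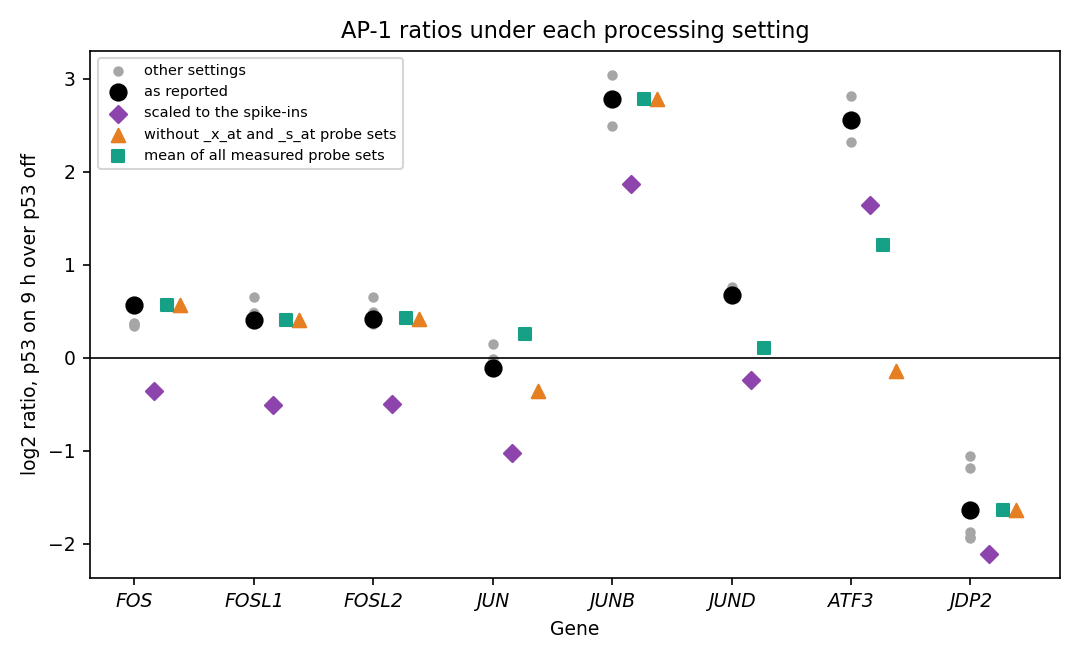
Log2 ratio, p53 on 9 h over p53 off, of each measured AP-1 gene as reported (black) and under the other processing settings (markers beside it are offset for legibility). JUNB stays between 1.87 and 3.04 and JDP2 between -2.11 and -1.06. ATF3 is at -0.14 without _x_at and _s_at probe sets, where only its _a_at probe set is read. FOS, FOSL1, FOSL2 and JUND are below 0 when scaled to the spike-ins.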

How the data were processed

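Total RNA of DLD-1 cells, extracted with Trizol per the labels' protocols, was hybridized to 1 Affymetrix array per condition. The deposited signal intensities are linear, with 1 value per probe set, and the authors used MAS5, according to the submitters' processing notes. No MAS5 version is stated in these sources, and detection calls were not used here. With the outer 2% of probe sets at each end removed, the mean was 500.1 on either array, so the arrays share a scale, and no further normalization was added. The number of arrays limits the precision.

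Gene names came from GEO's annotation of the platform, with symbols updated through Entrez identifiers to RefSeq names (GRCh38.p14). Leaving out controls, 54613 probe sets remained, and 41091 of them carried 1 gene symbol, 1801 several and 11721 none, and 41037 of the 41091 matched RefSeq. No probe set named a member together with another gene. Coordinates are those of the RefSeq upstream windows only.

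The floor (50th percentile), the brightest probe set per gene by mean signal, and the ratio p53 on over p53 off are as described in the report. With 1 array per condition no p-value or standard error was computed, and counts go by size, at 1.5-fold. Every member was named, and from each other list the 5 genes with the largest absolute log2 ratio and any past 4-fold. Other genes named were chosen after their values were seen. Members and lists were chosen with earlier results of these data known. The ratio procedure was tested on simulated data. Alternatives were a floor at the 40th or the 60th percentile, pseudocounts of 1 or of the floor, median centring, quantile normalization, loess (span 0.3), spike-in scaling, the mean of measured probe sets, removal of _x_at and _s_at probe sets, and a 2-fold threshold. The tools were statsmodels 0.14.6, numpy 2.4.6, scipy 1.17.1, pandas 2.3.3 and matplotlib 3.10.9 under Python 3.11.15.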

Additional observations from a re-analysis of the deposited data

Results flagged for a closer look

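Control probe sets, which were left out of the AP-1 ratios of the main processing, carried signals that differed between the arrays. The spike-ins among them set the scale only where a ratio is scaled to the spike-ins. For beta-actin the ratio of 3' to 5' signal was 7.29 with p53 on, against 1.37 with p53 off. For GAPDH the ratio was 1.77 with p53 on and 0.97 with p53 off. The median hybridization spike-in had a p53 on over p53 off ratio of 1.89.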

How the results depend on the processing

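JUNB was at least 1.5-fold higher and JDP2 at least 1.5-fold lower in all 11 settings, main processing included. Each had 1 measured probe set, so the mean of probe sets and the removal of _x_at and _s_at probe sets could not change their values. Moving the floor also left JUNB at 2.78. These settings are therefore no check on JUNB. ATF3 was at least 1.5-fold higher in 10 of 11, at 1.21 for the mean of its probe sets. It reversed to -0.14 after removal of _x_at and _s_at probe sets, which left its _a_at probe set in place. JUND was at least 1.5-fold higher in 8 of 10 settings, with 0.10 for the mean of its probe sets and a reversal to -0.24 with spike-in scaling. BATF3 was measured only with the floor at the 40th percentile, where its log2 ratio was bounded at 0.33. The number of AP-1 members at least 1.5-fold higher was 5 after loess and 1 after that removal, instead of 3. Spike-in scaling moved the median of all genes to -0.80. Under it 2 members were lower, JDP2 and JUN (-1.03), with a median of -0.43, and partner factors counted 2 higher and 8 lower (median -0.85), kinases and regulators 4 and 20 (-0.94), and targets 5 and 9 (-0.31). At 2-fold, 7 kinases and regulators were lower, and 5 targets were higher and 1 lower. After the same removal 7 kinases and regulators were lower, and with the mean of probe sets 2 targets were lower. No share of all measured genes was computed for these alternative settings or at 2-fold. The counts under them therefore have no background and are not read as results about the lists. The other counts stayed within 1.5 times and the other medians within 0.84 of the reported value. Which scaling is right was not tested. The floor limits what dim members such as FOSB and BATF3 can show. No paired analysis was possible because each condition has 1 array, and for the same reason no array could be left out.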

Other observations

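Genes whose products act on JUN proteins were examined further among the listed regulators, chosen after their values were seen. MEN1, which encodes menin, a binding partner of JUND, read 747.2 with p53 on and 2240 with p53 off on its single measured probe set, a log2 ratio of -1.58. COPS5, the JUN-binding subunit of the COP9 signalosome, was 1.82-fold lower, at 3790 with p53 on and 6891 with p53 off. COP1, a ubiquitin ligase for JUN, read 2262 with p53 on and 1473 with p53 off and was 1.54-fold higher, but a further probe set had a log2 ratio of -0.39. The direction of COP1 also turns under spike-in scaling, which lowers each ratio by 0.92. The listed regulators FBXW7 and ITCH did not reach 1.5-fold, at log2 ratios of 0.58 and -0.52. Of their measured probe sets, 1 of 4 for FBXW7 and 1 of 6 for ITCH lay above 0.

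The JNK genes MAPK8 and MAPK9, which encode the kinases that phosphorylate JUN, were at 0.22 and 0.32 on the log2 scale by their brightest probe sets, and each had further probe sets below 0. Lowered by 0.92 under spike-in scaling, the brightest probe sets of both would also fall below 0. MAP2K4, a kinase that activates JNK, was 1.69-fold lower, at 1110 with p53 on and 1875 with p53 off. Its other measured probe set had a log2 ratio of only -0.09. Of the feedback inhibitors of the ERK pathway, SPRY2 was 2.94-fold higher, at 3558 with p53 on and 1212 with p53 off, while SPRY4 was at a log2 ratio of -0.52, at 308.6 and 442.6. DUSP1, a phosphatase of MAP kinases, was 1.62-fold lower, at 572.1 and 925.0, with both of its measured probe sets lower.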
